A study of Mus musculus with 20 samples.

Results

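Interferon-stimulated genes are the genes that a cell switches on after interferon binds its surface receptors. A list of 34 of them, chosen by name, was followed through 16 mouse liver RNA libraries. All 34 were found among the 46078 genes of the count table, and all 34 passed the filter on low counts that left 15744 genes for testing. They fall into 25 targets of type I interferon and 9 GTPase genes best known as targets of interferon gamma. Because a gene that is high in a single group can pass such a filter through that group, passing it says nothing about a difference.

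The normal group held C57BL/6J wild-type mice given saline. All other mice were db/db, a strain whose mutant leptin receptor (Lepr) leaves it obese and diabetic. Over 12 weeks they received saline (model), 20 mg/kg pioglitazone (PGZ), a PPAR-gamma agonist used against diabetes, or 200 mg/kg of a Dendrocalamus latiflorus (bamboo) leaf extract (DLE). Each group had 4 libraries, with total counts of 16922833 to 21622959 for normal, 17993327 to 25119799 for model, 19332589 to 22415530 for PGZ and 18300173 to 24105179 for DLE libraries. The strain background, age and sex of the db/db mice are not stated in the sources used here, so the Lepr mutation and a difference of strain cannot be told apart between normal and db/db groups. The labels do not mention cages, days or batches, and the p-values measure the spread between these libraries. The hepatocyte gene Alb stood at 19585 to 79193 CPM (a gene's counts scaled to a common library total) in all libraries. In bulk tissue, fewer cells of a type and less RNA per cell cannot be told apart.

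Type I interferons signal through the receptor pair IFNAR1 and IFNAR2 and a complex that holds STAT2 and IRF9 and binds a DNA element called ISRE in its target promoters. Interferon gamma signals through IFNGR1 and IFNGR2 and acts on promoters through an element called GAS. The targets include proteins that bind viral RNA (IFIT and OAS families), sensors of viral RNA (RIG-I and MDA5), the ubiquitin-like protein ISG15, the MX GTPases that block virus particles, and the guanylate-binding (GBP) and immunity-related (IRG) GTPases that attack the vacuoles of intracellular microbes. Liver responds to both interferons, in hepatocytes and in its macrophages.

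RefSeq promoter windows on GRCm38.p6, which run from 250 bases before to 50 bases after each gene's start, were available for 26 of the 34 genes. The core of an ISRE, GAAA followed by any 2 bases and GAAA, or on the other strand TTTC, any 2 bases and TTTC, stood in 18 of these 26 windows (69.2%) and in 3.99% of the windows of all 27025 genes in the table. By class, 7 of 8 GTPases (87.5%) and 11 of 18 type I targets (61.1%) held it. The core of a GAS element, TTCNNNGAA, reads the same on both strands. It was found for 4 of 8 GTPases, 3 of 18 type I targets (16.7%) and 9.55% of all genes. Matches of both motifs were counted separately and may overlap. A match describes letters and is no evidence of binding. The stretches below are read along the gene's strand, with the letters of every ISRE core match in capitals. The first 3 belong to GTPase genes that differed between model and normal, the next 2 to type I targets set beside them, and the last 2 to a pair of near copies whose reads are hard to separate.
Gbp2: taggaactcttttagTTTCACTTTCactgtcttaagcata
Igtp: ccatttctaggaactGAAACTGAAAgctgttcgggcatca
Irgm1: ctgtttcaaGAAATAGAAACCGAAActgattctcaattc
Isg15: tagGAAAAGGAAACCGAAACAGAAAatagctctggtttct
Ifit1: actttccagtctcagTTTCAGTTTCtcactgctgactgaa
Ifit3: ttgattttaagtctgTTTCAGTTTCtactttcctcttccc
Ifit3b: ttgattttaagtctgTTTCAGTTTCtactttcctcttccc

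These stretches lie at chr3:142620589-142620628 on the plus strand (Gbp2), chr11:58199507-58199546 on the plus strand (Igtp), chr11:48871421-48871459 on the minus strand (Irgm1), chr4:156200860-156200899 on the minus strand (Isg15), chr19:34640789-34640828 on the plus strand (Ifit1), chr19:34583392-34583431 on the plus strand (Ifit3) and chr19:34607788-34607827 on the plus strand (Ifit3b). In Gbp2 the capital letters run from 59 to 50 bases before the RefSeq start, in Igtp from 34 to 25 and in Ifit1 from 85 to 76. Isg15 held 3 overlapping matches and Irgm1 held 2. The stretches of Ifit3 and Ifit3b are the same letter for letter. In the gene models of GENCODE M21 (GRCm38), Ifit3 shared 51.2% of its 50-base words with other genes, mostly Ifit3b, and Ifit3b shared 45.0%. Tgtp1 shared 81.2%, mostly with Tgtp2, and Oas1a shared 57.6% with Oas1g, so the counts of these genes depend on how reads were assigned. Igtp (chr11:58199556-58207591) and Irgm2 (chr11:58199618-58222782) overlap on the same strand, and reads from their shared bases cannot be told apart.

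Libraries stood apart in ways that touch every result below. Per class, the mean of log2(CPM + 0.5) was compared with the mean of the normal libraries. The GTPase mean was 3.34 above normal in model_387 and 2.04 above in model_327, but 0.67 in model_407 and -0.44 in model_329. The type I mean was 0.87 in model_387, 0.37 in model_327, -0.03 in model_407 and -0.58 in model_329. All 9 GTPases stood above every normal library in both model_327 and model_387, as did 8 of 25 type I targets. In model_387 all 9 GTPases reached their highest level of the 16 libraries. In model_329 all 9 GTPases and 17 type I targets had their lowest level of the model group, and 17 type I targets lay below every normal library. Among treated mice, model_DLE_361 had the lowest type I mean of all libraries (-1.20), with 22 of 25 type I targets below every normal library, and model_DLE_401 the highest GTPase mean (1.39). In the normal group, normal_376 held the highest level of 20 type I targets and 6 GTPases.

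**Figure D1:**
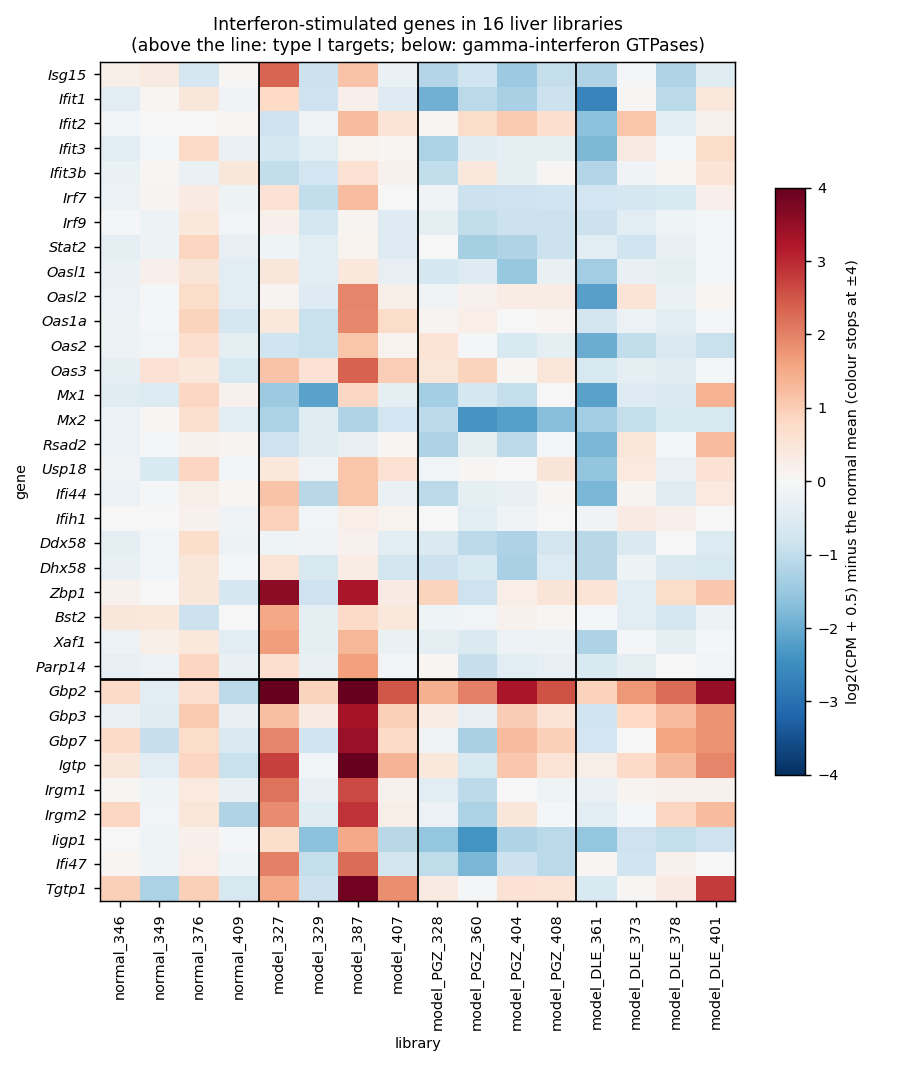
Level of each of the 34 genes (rows) in each of the 16 libraries (columns), as log2(CPM + 0.5) minus the mean of the 4 normal libraries; red is above and blue below the normal mean, and the colour stops at 4. The 9 GTPases below the horizontal line are red in model_327 and model_387, and model_DLE_361 is blue for most type I targets.

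**Figure D2:**
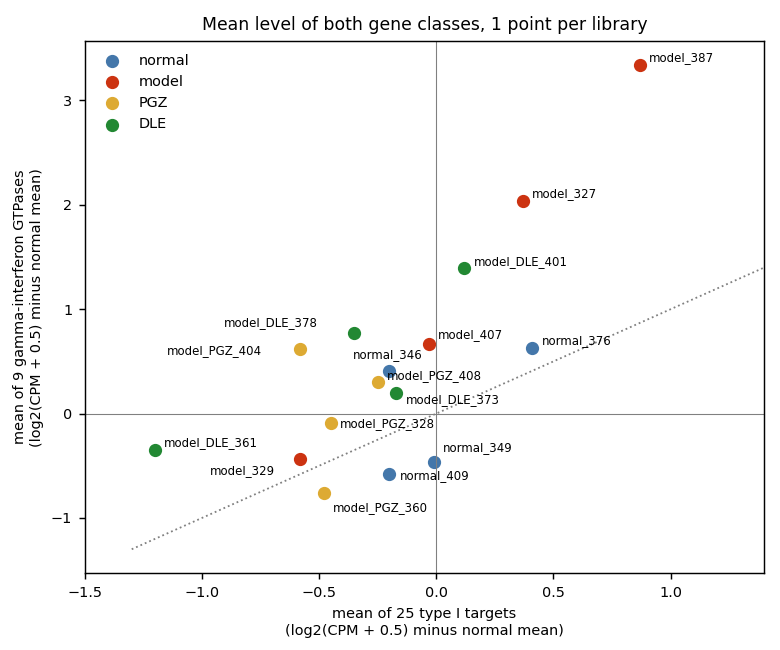
Mean of the 9 GTPases (vertical axis) against the mean of the 25 type I targets (horizontal axis), both as log2(CPM + 0.5) minus the normal mean, with 1 point per library coloured by group; the dotted line marks equal values. The libraries model_387 (0.87 and 3.34) and model_327 (0.37 and 2.04) lie farthest above the dotted line, and model_DLE_361 (-1.20 and -0.35) farthest to the left.

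The same 2 model libraries carried far more acute-phase RNA, the liver's response to inflammatory cytokines. All 21 acute-phase genes had reads, and normal libraries held a summed 13669 to 18685 CPM of them. The sum reached 264748 CPM for model_327 and 123328 for model_387, while model_407 and model_329 had 24939 and 12562. Treated libraries ranged from 12941 to 62160 CPM under PGZ and from 12062 to 74949 under DLE. Markers of immune cells were high in model_387, and some of them also in model_327. All 12 Kupffer cell markers, the resident macrophages of liver, had reads, and normal libraries held a sum of 87.2 to 253 CPM, model libraries 210 to 1944, PGZ libraries 278 to 631 and DLE libraries 192 to 297. The 10 markers of recruited macrophages, all with reads, summed to 85.1 to 98.9 CPM for normal, 190 to 439 for PGZ and 89.1 to 138 for DLE libraries, and in the model group to 1501 CPM for model_387, 1159 for model_327, 195 for model_407 and 107 for model_329. The highest Kupffer sum was that of model_387. In model versus normal, 9 of the 12 Kupffer markers were called higher by edgeR (median log2 fold change 2.59), where 6.18% of all genes rose. The Kupffer gene Clec4f was not among the 9. It stood at 14.8 CPM in model_387, 11.8 in model_327, 196 in model_407 and 85.6 in model_329, against 36.7 to 137 CPM in normal libraries. All 10 neutrophil markers had reads. Their sum was 2175 CPM for model_387 and 2.37 to 22.6 for the remaining model libraries, with 0.95 to 1.51 CPM for normal, 4.42 to 368 for PGZ and 0.714 to 57.5 for DLE. The 16 markers of T and NK cells, again all with reads, came to 100 CPM for model_387 and 2.82 to 16 for the remaining model libraries, with 2.95 to 9.24 for normal, 5.49 to 30.0 for PGZ and 4.15 to 16.1 for DLE. The 7 B cell markers, all with reads, summed to 153 CPM for model_387 and 1.7 to 5.44 for the remaining model libraries, against 8.02 to 14.6 for normal. The 7 markers of plasmacytoid dendritic cells, a main source of type I interferon, had reads and summed to 15.5 to 21.2 CPM for normal, 83.0 to 253 for PGZ and 20.0 to 67.4 for DLE libraries. In the model group their sum was 566 CPM for model_327, 96.8 for model_387, 89.3 for model_407 and 26.4 for model_329. Only 3 of these 7 genes passed the filter on low counts, and 1 of them, Ly6d, was called. Ly6d rose from a mean of 0.183 ± 0.175 CPM in normal to 176 ± 252 in model (adjusted p = 0.0013), 132 ± 74.9 in PGZ (adjusted p = 0.00093) and 17.4 ± 19.8 in DLE (adjusted p = 0.012; SD, n = 4, edgeR). With Ly6d included, the 3 tested markers had a median log2 fold change of only 0.07 between model and normal. Siglech, a defining marker of plasmacytoid dendritic cells, stood at 0 to 1.17 CPM in all 16 libraries, with 108 reads in total. It did not follow the sums. Normal libraries averaged 0.784 CPM of Siglech, DLE libraries 0.25, model libraries 0.245 and PGZ libraries 0.0993. The higher sums of db/db libraries therefore do not stand for the list as a whole. The 6 cholangiocyte markers, of the bile duct lining, summed to 951 CPM for model_327 and 66.7 to 79.8 for the remaining model libraries, against 76.7 to 91.6 for normal. Spp1 is on this list and also on that of recruited macrophages, so both sums share its reads and are not separate. Its mean was 284 ± 437 CPM in model and 70.9 ± 5.34 in normal (SD, n = 4). The part of inflammation or immune cells in the results below was not tested.

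The levels of the 34 genes in normal liver spanned a wide range. Per kilobase of exon, Bst2, which encodes tetherin, a protein that holds budding viruses at the cell surface, had a mean of 91.6 CPM per kb, and the IRG gene Iigp1 had 80.1. Stat2 followed at 44.1 CPM per kb, Isg15 at 16 and Igtp at 15.4. At the other end Tgtp1 had 0.311 CPM per kb, Gbp2 0.327 and Oas3 0.0456. With 0 to 83 reads per library, Oas3 was the least covered member. The model group had the highest mean of the 4 groups for 24 of 34 genes, all 9 GTPases among them, and the normal group for 8, all of them type I targets. The lowest mean was in PGZ for 20 genes (16 type I targets and 4 GTPases), in normal for 7, in DLE for 7 and in model for none. Group medians gave a like count, with the model group highest for 22 genes and PGZ lowest for 20.

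In what follows, library values are CPM and are always given in the order normal_346, normal_349, normal_376 and normal_409, then model_327, model_329, model_387 and model_407, then model_PGZ_328, model_PGZ_360, model_PGZ_404 and model_PGZ_408, then model_DLE_361, model_DLE_373, model_DLE_378 and model_DLE_401. Fold changes are log2 values with their standard error from edgeR's quasi-likelihood test over all 16 libraries, adjusted by the Benjamini-Hochberg method over the 15744 genes tested, and a gene is called at an adjusted p under 0.05.

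Few of these genes distinguished untreated db/db from wild-type liver. In model versus normal, 4 of 34 rose and none fell, against 6.18% of all genes tested that rose and 2.9% that fell. By class, 3 of 9 GTPases (Gbp2, Igtp and Irgm1) and 1 of 25 type I targets (Zbp1) rose. The median log2 fold change was 1.86 for the GTPases, all 9 of them positive, and 0.37 for the type I targets, of which 16 were positive and 9 negative, beside 0.07 for all genes tested. Groups did not overlap for 1 gene with higher model values (Gbp2) and 1 with lower ones (Mx2), against 6.57% and 7.13% of all genes. At an unadjusted p under 0.05 there were 10 higher and 1 lower members, where 17.2% of all genes were higher and 10.8% lower.

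Gbp2, a guanylate-binding GTPase, had the largest fold change of the list. Its level was 1.48, 0.377, 1.37 and 0.0686 CPM in normal, 21.1, 1.67, 77.5 and 6.04 in model, 2.65, 4.24, 10.7 and 6.29 in PGZ and 1.71, 3.39, 4.94 and 12.5 in DLE. Every db/db library, treated or not, was above every normal library, and model_387 was the highest. Gbp2 rose by a log2 fold change of 4.97 ± 1.09 in model versus normal (31.3-fold, adjusted p = 0.014, n = 4 per group, edgeR). It was called with any 1 of the 16 libraries left out, with log2 fold changes of 3.5 to 5.38, but not in a fit of the model and normal libraries alone (5.02, adjusted p = 0.081), which called none of the 34. Without model_327 and model_387 it stood at 2.19 (adjusted p = 0.23).

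Igtp encodes the IRG protein IRGM3. Its level was 38.8, 20.9, 50.5 and 14.7 CPM in normal, 187, 25.6, 476 and 72.4 in model, 37.9, 18.2, 58.9 and 40.8 in PGZ and 32.7, 47.6, 69.8 and 110 in DLE. The model values of model_327, model_387 and model_407 were above all normal values, and model_329 lay among them. Igtp rose by a log2 fold change of 2.61 ± 0.71 (6.08-fold, adjusted p = 0.034, edgeR), and it lost its call without any 1 normal library, model_327 or model_387 (highest adjusted p = 0.13). Irgm1, a regulator of the other IRG proteins, stood at 53.9, 45.7, 68.4 and 42.2 CPM in normal, 232, 40.8, 324 and 58.6 in model, 38.5, 24.6, 51.5 and 45.6 in PGZ and 43.0, 55.3, 57.7 and 58.5 in DLE. Only model_327 and model_387 stood above all normal libraries. Irgm1 rose by 1.64 ± 0.49 (3.12-fold, adjusted p = 0.045, edgeR), a call that held in 2 of 16 fits with 1 library left out, with adjusted p-values of 0.0053 to 0.15.

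Zbp1, a sensor of Z-form nucleic acids that can start cell death, was the type I target called in this comparison. Its level was 11.9, 10.5, 14.5 and 6.38 CPM in normal, 129, 5.59, 104 and 13.3 in model, 19.7, 5.57, 12.7 and 15.1 in PGZ and 15.3, 7.5, 17.6 and 22.3 in DLE. Its highest values were those of model_327 and model_387, and model_329 lay below all normal libraries. Zbp1 rose by 2.54 ± 0.74 (5.81-fold, adjusted p = 0.044, edgeR), and 7 of 16 fits with 1 library left out called it (adjusted p of 0.0065 to 0.15).

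The remaining GTPases were not called between model and normal. Iigp1, an IRG effector that coats the vacuole of parasites, stood at 469, 414, 535 and 447 CPM in normal, 754, 149, 1318 and 217 in model, 159, 88.7, 200 and 218 in PGZ and 157, 264, 237 and 263 in DLE. Of the model libraries 2 were above and 2 below all normal libraries, and every treated library was below them. Its log2 fold change in model versus normal was 0.39 ± 0.50 (adjusted p = 0.65, edgeR). Ifi47, also an IRG gene, had 28.3, 23.3, 32.0 and 23.4 CPM in normal, 109, 13.4, 127 and 15.9 in model, 12.9, 7.06, 14.5 and 12.4 in PGZ and 28.0, 15.1, 29.8 and 26.8 in DLE. The model libraries again split, 2 above and 2 below the normal range (log2 fold change 1.31 ± 0.56, adjusted p = 0.14, edgeR). Tgtp1, an IRG gene, had 1.85, 0, 1.86 and 0.274 CPM in normal, 2.97, 0.161, 17.2 and 3.87 in model, 1.06, 0.645, 1.32 and 1.3 in PGZ and 0.293, 0.759, 1.02 and 7.87 in DLE (model versus normal 2.58 ± 1.21, adjusted p = 0.18, edgeR). Its near copy Tgtp2 had 1.58, 0.861, 0.783 and 0.0686 CPM in normal and 2.19, 0.269, 12.8 and 2.55 in model (2.41 ± 0.94, adjusted p = 0.11, edgeR). Both copies peaked in model_387. Gbp3, Gbp7 and Irgm2 had log2 fold changes of 1.86, 1.97 and 1.54, with adjusted p-values of 0.084, 0.14 and 0.14.

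**Figure D3:**
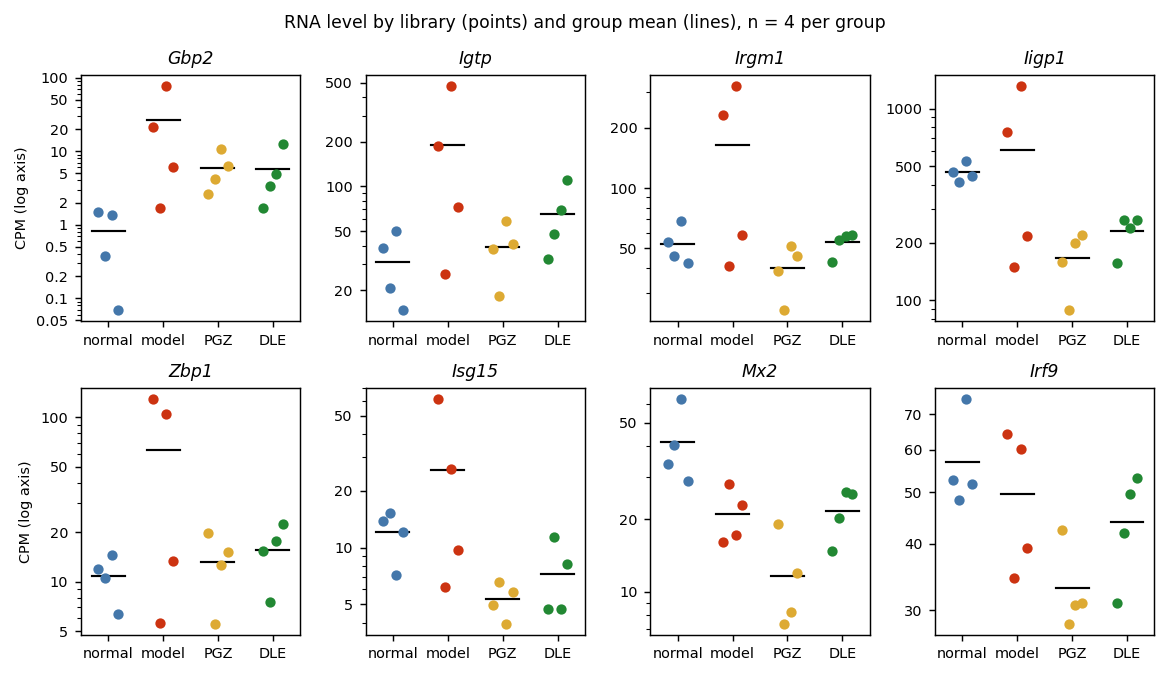
CPM on log axes of 8 genes in each library (points, ordered as in the text) and the group mean (horizontal line), with 4 libraries per group. In Igtp, Irgm1, Zbp1 and Iigp1, model_327 and model_387 lie far above the other model libraries; Mx2 is lower in all model, PGZ and DLE libraries than in any normal library.

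Among the type I targets, the transcription factors were not called between model and normal. Stat2 stood at 192, 214, 444 and 195 CPM in normal, 215, 178, 270 and 172 in model, 243, 97.5, 106 and 134 in PGZ and 179, 141, 199 and 234 in DLE, with a log2 fold change of -0.33 ± 0.32 in model versus normal (adjusted p = 0.54, edgeR). Its highest value was in normal_376. Irf9, the DNA-binding subunit of the complex, had 52.8, 48.4, 74.8 and 51.8 CPM in normal, 64.2, 34.5, 60.3 and 39.2 in model, 42.4, 28.3, 30.7 and 30.9 in PGZ and 30.9, 41.9, 49.6 and 53.1 in DLE (model versus normal -0.20 ± 0.24, adjusted p = 0.61, edgeR). All PGZ libraries were below all normal ones. Irf7, a factor that amplifies type I interferon production, had 45.4, 57.9, 68.7 and 47.2 CPM in normal, 80.3, 27.3, 128 and 54.0 in model, 49.3, 29.8, 30.3 and 30.6 in PGZ and 31.8, 34, 35.1 and 61.8 in DLE (model versus normal 0.40 ± 0.36, adjusted p = 0.48, edgeR). The model libraries of Irf7 surrounded the normal range on both sides.

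The effectors gave a mixed picture. Isg15, the ubiquitin-like modifier, had 13.9, 15.2, 7.19 and 12.1 CPM in normal, 61.1, 6.18, 26.2 and 9.70 in model, 4.95, 6.57, 3.96 and 5.84 in PGZ and 4.74, 11.4, 4.73 and 8.2 in DLE. Here model_327 and not model_387 was highest, and all PGZ libraries lay below all normal ones. Its log2 fold change in model versus normal was 1.09 ± 0.53 (adjusted p = 0.19, edgeR). Usp18, the protease that removes ISG15 and dampens the type I receptor, had 6.28, 4.41, 12.8 and 6.31 CPM in normal, 9.39, 6.18, 15.6 and 10.8 in model, 6.40, 7.18, 6.95 and 9.99 in PGZ and 2.0, 9.2, 5.65 and 10.6 in DLE (0.49 ± 0.43, adjusted p = 0.47, edgeR). Ifit1, which binds viral RNA by its cap, had 8.87, 12.7, 16.6 and 10.9 CPM in normal, 21.1, 6.51, 13.8 and 8.16 in model, 2.79, 5.45, 4.53 and 6.39 in PGZ and 1.51, 12.5, 5.34 and 16.2 in DLE (0.01 ± 0.52, adjusted p = 0.99, edgeR). The PGZ libraries of Ifit1 were below all normal and all model libraries.

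Ifit3, a partner of Ifit1, had 11.1, 15.2, 26.9 and 12.8 CPM in normal, 9.39, 11.1, 17.1 and 16.5 in model, 6.21, 10.9, 11.9 and 12.0 in PGZ and 4.15, 20.0, 14.8 and 26.1 in DLE (model versus normal -0.29 ± 0.42, adjusted p = 0.69, edgeR). Its near copy Ifit3b was lower, with 1.37, 1.88, 1.37 and 2.54 CPM in normal, 0.632, 0.807, 2.9 and 2.0 in model, 0.625, 2.50, 1.23 and 1.82 in PGZ and 0.489, 1.52, 1.88 and 2.78 in DLE (-0.16 ± 0.57, adjusted p = 0.87, edgeR). Neither copy separated the groups. Across the 4 IFIT genes the log2 fold changes lay between -0.29 and 0.49. The 5 OAS genes, whose products make the messenger that activates the RNA-cutting enzyme RNase L or resemble those enzymes, were all positive, from 0.04 (Oasl1) to 2.25 (Oas3), and none was called. Oas3 had 0.106, 0.645, 0.538 and 0 CPM in normal, 1.22, 0.645, 3.44 and 1.02 in model, 0.577, 0.928, 0.308 and 0.593 in PGZ and 0, 0.0893, 0.0509 and 0.252 in DLE. Its lowest model value, that of model_329, equalled its highest normal value to the digits given, and its DLE libraries were below every model library (model versus normal 2.25 ± 0.85, adjusted p = 0.10, edgeR).

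Bst2 had 106, 105, 42.7 and 77.6 CPM in normal, 231, 58.8, 134 and 105 in model, 69.8, 72.8, 87.7 and 80.8 in PGZ and 74.6, 57.2, 47.4 and 68.4 in DLE (model versus normal 0.68 ± 0.34, adjusted p = 0.21, edgeR). Xaf1, which binds the apoptosis inhibitor XIAP, had 14.0, 19.6, 22.2 and 12.0 CPM in normal, 53.7, 12.3, 41.7 and 13.6 in model, 12.8, 10.8, 14.0 and 14.3 in PGZ and 6.65, 16, 12.7 and 15.6 in DLE (0.84 ± 0.41, adjusted p = 0.19, edgeR). Both genes were highest in model_327.

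Both MX genes had a negative log2 fold change. Mx2 had 33.9, 40.6, 62.8 and 28.7 CPM in normal, 16.1, 28.0, 17.1 and 22.9 in model, 19.0, 7.38, 8.23 and 11.9 in PGZ and 14.7, 20.1, 25.8 and 25.4 in DLE. Every db/db library was below every normal library, also model_327 and model_387, where the GTPases were highest. Mx2 had a log2 fold change of -0.98 ± 0.31 in model versus normal (adjusted p = 0.059, edgeR), which misses the threshold, and of -0.71 (adjusted p = 0.38) without model_327 and model_387. DESeq2 called it lower, as it did 5.36% of all genes. Mx1 had a log2 fold change of -0.49 (adjusted p = 0.70). In C57BL/6 mice the Mx1 gene is known to carry a deletion that removes a working protein, so its RNA level does not speak for MX1 function.

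**Figure D4:**
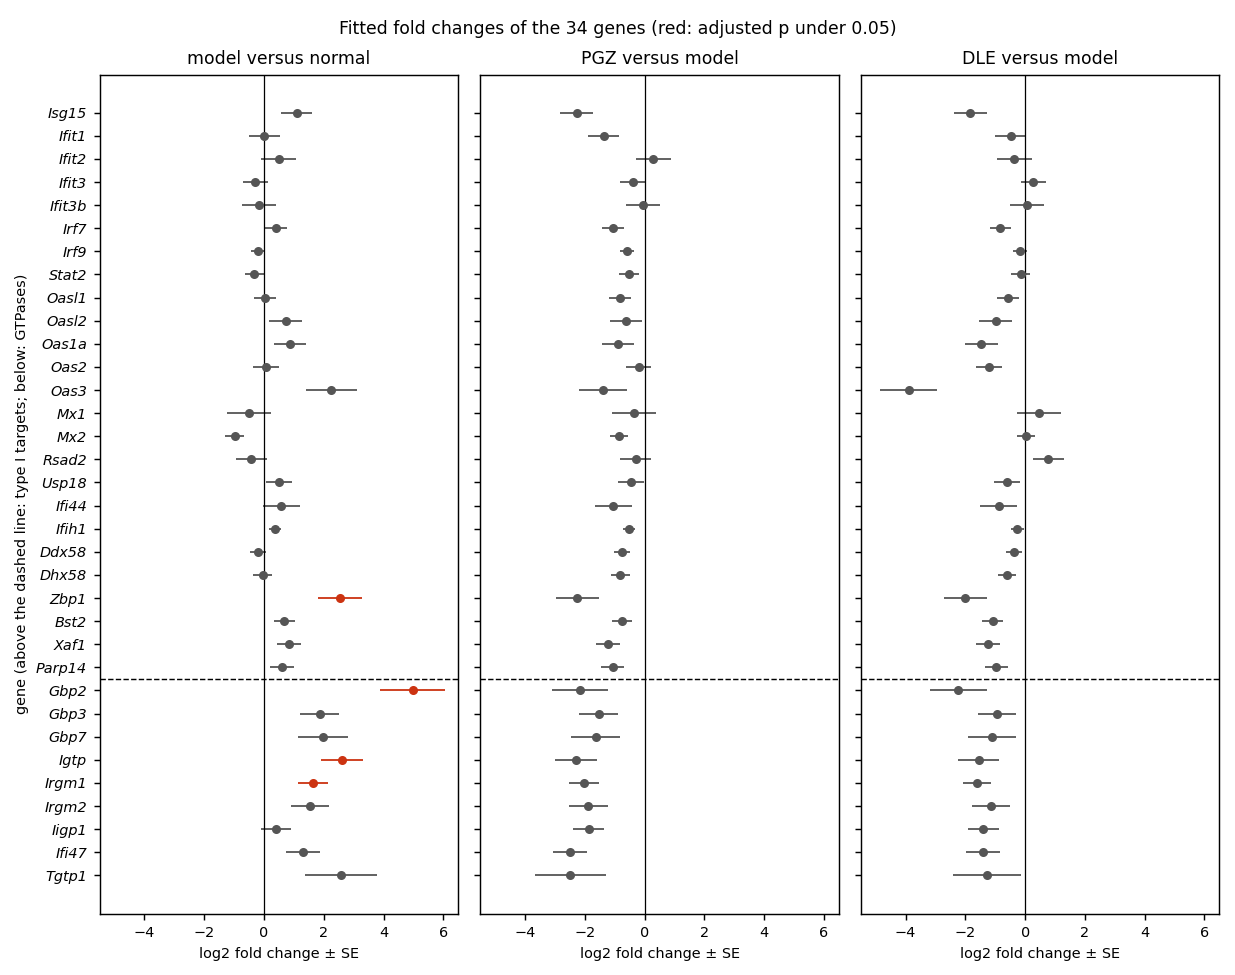
Log2 fold change (points) with its standard error (bars) of the 34 genes in model versus normal, PGZ versus model and DLE versus model, from edgeR over 16 libraries; red marks an adjusted p under 0.05. The 4 red genes are Zbp1, Gbp2, Igtp and Irgm1 in model versus normal, and the GTPases below the dashed line are positive there and negative in both treatment comparisons, which share the model libraries.

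Model versus normal was also computed without model_327 and model_387, the libraries with the most acute-phase RNA. They also had the highest GTPase means, so lower GTPase values without them follow from which libraries were left out. The median log2 fold change of the GTPases was then -0.01 and that of the type I targets -0.34, with 4 of 9 and 5 of 25 positive, beside a median of 0.0 for 16372 genes tested. None of the 4 genes named above was called, and Iigp1 was called lower (-1.35, adjusted p = 0.044), where 0.947% of all genes tested were called lower and 1.73% higher. Zbp1 then stood at -0.20 and Irgm1 at -0.08, both with the opposite sign, and Igtp at 0.65 (adjusted p = 0.65). Within single groups the spread was wide too. The median SD of log2(CPM + 0.5) over the GTPases was 1.71 in model, 0.80 in normal, 0.58 in PGZ and 0.79 in DLE, and over the type I targets 0.77, 0.46, 0.41 and 0.58, beside 0.47, 0.31, 0.25 and 0.37 over all genes tested.

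**Figure D5:**
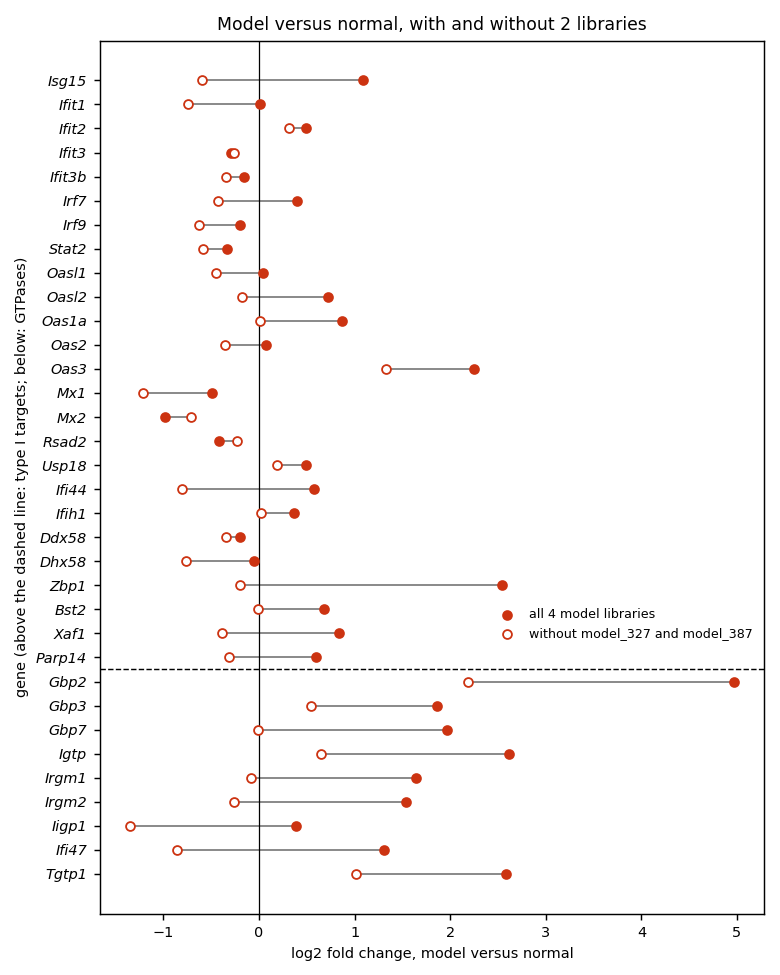
Log2 fold change of each of the 34 genes in model versus normal with all 4 model libraries (filled) and without model_327 and model_387 (open), joined by a line. The median of the 9 GTPases below the dashed line moves from 1.86 to -0.01, and that of the 25 type I targets from 0.37 to -0.34.

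Pioglitazone was compared with saline in db/db mice. No member was called, while 0.0127% of all genes tested were called higher and 0.0% lower. All 9 GTPases and 24 of 25 type I targets had a negative log2 fold change, with medians of -2.03 and -0.76 beside -0.09 for all genes tested. At an unadjusted p under 0.05 there were 20 members, all lower, against 5.7% of all genes. DESeq2 called 5 lower (Ifi47, Igtp, Iigp1, Irgm1 and Isg15), where it called 0.337% of all genes lower, and limma voom called 4 lower (Ddx58, Irf7, Isg15 and Mx2), where it called 5.48%. The smallest p-values belonged to Ifi47 (-2.50 ± 0.58, adjusted p = 0.16), Irgm1 (-2.03 ± 0.49, adjusted p = 0.19) and Isg15 (-2.27 ± 0.55, adjusted p = 0.20), all by edgeR. Ifit1 (-1.37 ± 0.53, adjusted p = 0.44) and Ddx58 (-0.76 ± 0.26, adjusted p = 0.41), which encodes the RNA sensor RIG-I, had all 4 PGZ libraries below all 4 model libraries, as 2.01% of all genes did.

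For all 9 GTPases the PGZ and model ranges overlapped, and model_329 lay below the highest PGZ library. Without model_327 and model_387 the medians of PGZ versus model were -0.23 for the GTPases and -0.16 for the type I targets, with 7 of 9 and 17 of 25 negative, beside 0.03 for all genes tested. Ifi47 then stood at -0.33, Irgm1 at -0.31 and Igtp at -0.33. Mx2 stood at -1.13 (adjusted p = 0.26), against -0.85 ± 0.31 (adjusted p = 0.43) with all libraries.

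The leaf extract gave no call either, and no gene of the table was called in DLE versus model (0.0% in either direction). All 9 GTPases and 20 of 25 type I targets had a negative log2 fold change, with medians of -1.40 and -0.60 beside -0.02 for all genes tested. At an unadjusted p under 0.05 there were 14 members, all lower, against 9.44% of all genes. DESeq2 called 3 lower (Irgm1, Isg15 and Oas3), where it called 1.97% of all genes lower, and limma voom called none (0.0191% of all genes lower). Oas3 had the smallest p (-3.89 ± 0.95, adjusted p = 0.21, edgeR) and the one pair of ranges without overlap, as 1.09% of all genes had. Its DLE libraries held 0, 2, 1 and 6 reads, so this fold is poorly fixed. Irgm1 stood at -1.61 ± 0.48 (adjusted p = 0.21), Isg15 at -1.83 ± 0.54 (adjusted p = 0.21), Bst2 at -1.09 ± 0.34 (adjusted p = 0.22) and Xaf1 at -1.25 ± 0.41 (adjusted p = 0.22). Without model_329, the model library with the lowest GTPase levels, 8 members were called lower, where 2.61% of all genes were. All 9 GTPases had their lowest model level there, so their values of DLE versus model had to move down without it.

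Without model_327 and model_387, the model libraries with the highest GTPase means, GTPase values of DLE versus model had to move up. All 9 GTPases were then positive, with a median of 0.40 and adjusted p-values of 1.0 for Gbp2, Igtp, Irgm1, Iigp1 and Ifi47, and the type I median was -0.02. The saline-treated db/db libraries serve as the reference for PGZ and for DLE and also enter model versus normal, so opposite signs between these comparisons are not independent.

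Treated mice were also compared with wild-type mice, which leaves the model libraries out of the contrast. The spread of the model libraries still enters these p-values, because 1 fit over all groups estimates the spread of each gene. With PGZ, 3 of 34 members fell (Mx2, Irf9 and Ddx58) and none rose, against 6.08% of all genes that fell and 6.15% that rose. All 3 are type I targets, and the type I median was -0.48 with 20 of 25 negative, beside 0.09 for the GTPases and 0.03 for all genes tested. Mx2 fell by 1.84 ± 0.32 on the log2 scale (adjusted p = 0.0021, edgeR) and was called in all 24 alternatives tried. Ddx58 stood at 35.8, 44.2, 78.0 and 41.2 CPM in normal, 42.1, 43.3, 53.2 and 35.3 in model, 31.8, 22.6, 20.0 and 28.3 in PGZ and 21.9, 31.9, 47.0 and 32.5 in DLE. Its PGZ libraries were below every normal and every model library. Ddx58 fell by 0.96 ± 0.26 (adjusted p = 0.028, edgeR) and Irf9 by 0.78 ± 0.24 (adjusted p = 0.041, edgeR). Neither was called without normal_376, the normal library with the highest type I levels, or without model_PGZ_360, model_PGZ_404 or model_PGZ_408. Ddx58 held in 12 and Irf9 in 8 of 16 fits with 1 library left out.

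In 8 of 34 members all PGZ libraries lay below all normal libraries, as in 15.7% of all genes. These were Isg15, Ifit1, Irf9, Mx2, Ddx58, Dhx58, Iigp1 and Ifi47. Iigp1 was at -1.49 ± 0.51 (adjusted p = 0.066, edgeR) and Dhx58, which encodes the RNA sensor LGP2, at -0.86 ± 0.31 (adjusted p = 0.080, edgeR). Gbp2 alone lay above, at 2.81 ± 1.02 (adjusted p = 0.082, edgeR), as 16.5% of all genes did.

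In DLE versus normal no member was called, against 1.84% of all genes that rose and 1.7% that fell. At an unadjusted p under 0.05 there were 1 higher and 3 lower members, where 8.61% and 7.19% of all genes were. DESeq2 and limma voom called none. They called 3.66% and 4.92% of all genes higher and 3.14% and 4.68% lower. The medians were 0.86 for the GTPases, -0.41 for the type I targets and 0.04 for all genes tested. Gbp2 had all DLE libraries above all normal ones (2.74 ± 1.02, adjusted p = 0.19), as 6.03% of all genes did. Oas2 (-1.13 ± 0.44, adjusted p = 0.21), Mx2 (-0.95 ± 0.31, adjusted p = 0.12) and Iigp1 (-1.02 ± 0.50, adjusted p = 0.34) had them below, as 6.22% did.

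Between the treatments no member was called in DLE versus PGZ by edgeR, where 0.0% of all genes were called higher and 0.00635% lower. At an unadjusted p under 0.05 there were 1 higher and 2 lower members, where 5.42% and 4.21% of all genes were. DESeq2 called none (0.127% of all genes higher and 0.286% lower), and limma voom called Mx2 higher with DLE, where it called 2.32% of all genes higher. Mx2 had 0.89 ± 0.31 (adjusted p = 0.48, edgeR). Oas3 (-2.50 ± 0.94, adjusted p = 0.48, edgeR) and Oas1a (-0.59 ± 0.55, adjusted p = 0.70, edgeR) had all DLE libraries below all PGZ libraries, as 4.2% of all genes did, and Ifi47 had them above (1.09 ± 0.56, adjusted p = 0.52, edgeR), as 4.24% did.

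The interferons themselves were scarce in this liver RNA. Of 16 interferon genes listed, 14 had no read in any library. A floor of 3 reads over all libraries, set here for a count of 0, would be 0.0089 CPM, and is no strict maximum. Ifnk had 4 reads in all. Ifng, the gene of interferon gamma, had 61 reads (2.53 CPM) in model_387 and at most 7 reads elsewhere, with none in 7 libraries.

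Among the interferon receptors, 1 rose in model versus normal, where 6.18% of all genes did. Ifnlr1, the receptor of interferon lambda, went from 0.141 ± 0.112 CPM in normal to 2.34 ± 2.50 in model (SD, n = 4, adjusted p = 0.016, edgeR) and 2.07 ± 1.33 in PGZ (adjusted p = 0.014, edgeR). Ifnar1 was not called in model versus normal (-0.18 ± 0.15, adjusted p = 0.45) but fell in PGZ versus normal (-0.59 ± 0.15, adjusted p = 0.020) and in DLE versus normal (-0.61 ± 0.15, adjusted p = 0.035), all by edgeR. It stood at 53.4 ± 2.04 CPM in normal, 35.4 ± 4.31 in PGZ and 35.0 ± 4.91 in DLE (SD, n = 4). Ifnar2, Ifngr1 and Ifngr2 were called in none of the 6 comparisons. In model versus normal their log2 fold changes were 0.40, 0.55 and 0.78, with adjusted p-values of 0.26, 0.19 and 0.091.

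Of 7 genes that brake the pathway, 2 rose in model versus normal, where 6.18% of all genes rose. Socs1, which blocks the receptor kinases, went from 0.819 ± 0.363 CPM in normal to 14.7 ± 17 in model (SD, n = 4, adjusted p = 0.037, edgeR), with 23.4 and 34.4 CPM in model_327 and model_387 and 0.0538 and 0.893 in model_329 and model_407. Ptpn6, a phosphatase of blood cells, rose by 1.64 ± 0.42 (adjusted p = 0.024, edgeR). No brake was called in the other 5 comparisons.

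Irf2, an interferon regulatory factor outside the list that competes with Irf1 for its sites, was lower in all db/db groups than in normal. Irf2 fell by 1.18 ± 0.21 in model (adjusted p = 0.0039), 1.11 ± 0.21 in PGZ (adjusted p = 0.0034) and 1.10 ± 0.21 in DLE (adjusted p = 0.0058), all by edgeR. In PGZ versus normal Irf3, which starts interferon transcription after RNA sensing, fell by 0.66 ± 0.18 (adjusted p = 0.028), and Irf5 fell as well. Irf1, the factor through which interferon gamma raises many targets, was called in no comparison (model versus normal 0.41 ± 0.33, adjusted p = 0.44). Of 15 tested adaptors and kinases of RNA and DNA sensing, none was called in model versus normal, and Tbk1 fell in PGZ versus normal (-0.68 ± 0.20, adjusted p = 0.035). Its product activates IRF3.

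A further list of 50 type I targets had 9 members that rose and 1 that fell in model versus normal, with a median log2 fold change of 0.60, where 6.18% of all genes rose and 2.9% fell. Ifi205 (4.33 ± 0.99, adjusted p = 0.016), Ifitm1 (1.52 ± 0.35, adjusted p = 0.017), which blocks virus entry, and Ms4a4c (4.83 ± 1.18, adjusted p = 0.021) led the rise, and Ifi27 fell. The model libraries spread widely, with 2.84 ± 3.63 CPM for Ifi205, 13.2 ± 7.01 for Ifitm1 and 8.34 ± 12.5 for Ms4a4c (SD, n = 4). In PGZ versus normal 6 of the 50 fell and 1 rose (median -0.13), where 6.08% of all genes fell and 6.15% rose. Apol9a fell by 2.36 ± 0.34 (adjusted p = 0.00056), Apol9b by 2.25 ± 0.35 (adjusted p = 0.00085) and Ifi27 by 1.37 ± 0.23 (adjusted p = 0.0013), and Ifitm1 was the one that rose. Apol9a (-1.40 ± 0.33, adjusted p = 0.026) and Ifi27 (-1.39 ± 0.23, adjusted p = 0.0018) were also the 2 that fell in DLE versus normal, where 1.7% of all genes did. Apol9a and Apol9b are near copies, and their counts may share reads.

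Of 28 tested further targets of interferon gamma, 7 rose and none fell in model versus normal, where 6.18% of all genes rose and 2.9% fell. Socs1 is 1 of these 7 and was also counted among the brakes, so the lists are not separate. Their median was 1.88, beside 1.86 for the 9 GTPases. Gbp6 (3.26 ± 0.74, adjusted p = 0.016), the chemokine gene Cxcl9 (4.40 ± 1.10, adjusted p = 0.024) and Gbp5 (3.83 ± 1.0, adjusted p = 0.028) had the smallest p-values. Cxcl9 stood at 360 CPM in model_387, 31.7 in model_327, 27.8 in model_407 and 5.75 in model_329, against 2.61 to 7.34 CPM in normal libraries. In PGZ versus normal Gbp11 fell (-2.87 ± 0.70, adjusted p = 0.016), and no member of this list was called in the remaining 4 comparisons. All p-values of these lists are from edgeR. In PGZ versus model and in DLE versus model, no member of any of these pathway lists was called.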

How the data were processed

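The 34 members came from a list of names. The members and the other gene lists were chosen with earlier results of these data known. The authors deposited raw counts, whole numbers for each Ensembl gene. HISAT2 2.1.0, StringTie 1.3.3b and GRCm38 are named in the submitters' processing notes. The sources used here do not give annotation or strandedness. The labels list 20 samples. Those given white tea extract have 4 columns without any value, so the fit took 16 libraries in 4 groups, 1 fewer than planned, and that group was not analysed here. No pair of libraries within a group agreed within sampling noise.

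The counts went into edgeR 4.0.16 under R 4.3.3 (filterByExpr, TMM, robust quasi-likelihood fit over all groups, two-sided tests, Benjamini-Hochberg over 15744 genes). The procedure was checked on simulated counts. Levels are CPM after TMM scaling, and class means and SDs use log2(CPM + 0.5). Alternatives were RLE scaling, no filter, a filter raised to 1 CPM in 4 libraries with 200 reads over all, fitting the compared groups only, DESeq2 1.42.0, limma 3.58.1 voom with quality weights, each library left out, and sets of 2 and 4 libraries left out. Library values are given for members called in model versus normal or in a treatment versus model, the 3 with the smallest p per class there, and 11 genes chosen by role. Ddx58 was added because it was called in PGZ versus normal, and members named for ranges that do not overlap were named after their values were seen. Of 18 other lists with 256 entries, 2 entries were not found; up to 3 called members per list, or the one with the smallest p, are named, and Clec4f, Siglech and Alb were named after their values were seen. Positions and exon lengths are from GENCODE M21, promoter sequences from RefSeq (GRCm38.p6). Figures were drawn with matplotlib 3.10.9 in Python 3.11.15. Some genes of the pathway lists are not reported here.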

Additional observations from a re-analysis of the deposited data

Results flagged for a closer look

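In 136 groups of 4 libraries, 34 genes in 4 groups, the gap of the highest or lowest library to its neighbour was compared with the range of the group on the log2(CPM + 0.5) scale. The share passed Dixon's critical value for 4 libraries 7 times, where chance gives about 1 in 20, or 6.8 of 136. In normal_376, Stat2 (444 CPM), Parp14 (78.2 CPM) and Gbp3 (22.5 CPM) stood above the other 3 normal libraries. Irf7 stood above the rest of its group in model_PGZ_328 (49.3 CPM) and in model_DLE_401 (61.8 CPM). Ifit3 stood below the rest in model_PGZ_328 (6.21 CPM), and Ifi47 below the rest in model_DLE_373 (15.1 CPM).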

How the results depend on the processing

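RLE scaling and the stricter filter changed no count of called members by more than 1.5 times. Counts of called members take both directions together. Percentages in brackets are the shares of all genes tested that the same setting called higher and lower. In model versus normal (4 called), no filter gave 1, Gbp2 (2.6% and 1.1%), and the fit of the compared groups 0 (0.759% and 0.801%). DESeq2 gave 7, with Mx2 among them as lower (10.1% and 5.36%), and limma voom 9 (14.4% and 13.1%). The 4 of the main fit were all higher. Single libraries left out gave 1 to 10. The count was 1 without any 1 normal library, model_327 or model_387 (1.83% to 5.24% and 1.29% to 2.05%). It was 2 without model_PGZ_404, model_PGZ_408 or model_DLE_378 (4.8% to 5.3% and 2.23% to 2.54%), and 10 without model_329 (11.4% and 6.6%). Without model_327 and model_387, or without these, model_PGZ_328 and model_DLE_361, 1 was called (Iigp1, lower), where 0.947% and 1.6% of all genes tested were called lower. In PGZ versus model (0 called), DESeq2 gave 5 (0.521% and 0.337%) and limma voom 4 (4.92% and 5.48%). The set of 4 libraries left out gave 1, Mx2 (0.394% and 0.935%). In DLE versus model (0 called), DESeq2 gave 3 (0.483% and 1.97%). Single libraries left out gave 0 to 8, with 8 without model_329 (0.55% and 2.61%). Here and in model versus normal, leaving out model_329 had to raise the model level of the GTPases, which were lowest in that library. In PGZ versus normal (3 called), the fit of the compared groups gave 11, DESeq2 5, limma voom 13, single libraries left out 1 to 5, and the sets of 2 and 4 libraries left out 8 and 11. The count was 1 (Mx2) without normal_376, model_PGZ_360, model_PGZ_404 or model_PGZ_408 (2.86% to 3.89% and 2.46% to 3.15%). It was 5 without model_329 or model_387 (7.02% to 8.34% and 6.75% to 6.82%). In DLE versus normal (0 called), the fit of the compared groups gave 1 (2.33% and 2.32%). The sets of 2 and 4 libraries left out gave 2 (3.66% and 3.22%) and 1 (4.94% and 3.97%). In DLE versus PGZ (0 called), limma voom gave 1 (2.32% and 1.89%) and the set of 4 libraries left out 3 (1.81% and 1.24%). Fewer libraries enter the fit of the compared groups and every setting with libraries left out. Why the counts differ between settings was not tested.

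Single genes reversed in model versus normal. Iigp1 was at -0.94 with limma voom and at -1.35 and -1.34 without 2 and 4 libraries, Zbp1 at -0.20 and -0.19, and Irgm1 at -0.08 and -0.07. Of 4888 values of single genes, 4514 kept sign and side of the threshold. No paired analysis was possible because the groups share no replicate numbers. Depth limits Oas3 and Tgtp1, with 0 reads in some libraries.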
